A study of Rattus norvegicus with 24 samples.

Results

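The change with time under Givinostat alone was read from 6 of the 24 arrays of the study, 3 of the group 24h_Giv_Ctrl and 3 of the group 6h_Giv_Ctrl, chosen by the group in the array titles. Each is a one-colour Agilent rat microarray for microRNAs (miRs), hybridized with miR-enriched RNA from INS1 cells, a β-cell line derived from a rat insulinoma. In both groups the cells received 125 nM Givinostat 1 h before time zero and no cytokines, and they were harvested 6 h or 24 h after it. The other 18 arrays hold untreated cells (6h_Ctrl and 24h_Ctrl), cells exposed to the cytokines IL-1β and IFN-γ (6h_Cyt and 24h_Cyt) and cells given Givinostat and then the cytokines (6h_Giv_Cyt and 24h_Giv_Cyt), with 3 arrays each. All are the same line, so the values describe a tumour-derived β-cell model. The series calls the 3 arrays of a group technical replicates, and nothing ties them to separate cultures. The p-values below from array means therefore measure the spread between arrays within the groups, pooled over all 24 arrays, which may be technical. Those from the study's fit on spots also count the spots of an array as replicates.

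Givinostat inhibits lysine deacetylases, the enzymes that take acetyl groups off histones and other proteins, and such inhibitors alter the transcription of many genes, among them genes that host miRs. A miR is a short RNA that guides a silencing complex to messenger RNAs, mainly through its seed, bases 2 to 8 from the 5′ end. miRs with the same seed are grouped as a family because they can pair with the same sites. In β-cells, miR-375 and miR-7 are known as abundant, islet-enriched miRs that restrain insulin secretion or growth, and the let-7 family is known for promoting differentiation and for acting on the insulin signalling pathway.

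Of the 128 detected miRs, 118 had a matched RefSeq sequence. Of the 11 seeds shared by at least 2 of these 118, the let-7 seed had the most members and the highest median difference, 0.2552. The seed of miR-125a-5p and miR-125b-5p came close to it, with a median of 0.2507. The mature sequences are shown because the 9 members of this family on the array differ from each other at few positions outside the seed while their differences between 24 h and 6 h ran from 0.00 to 0.46 on the log2 scale. They are from RefSeq (assembly GRCr8), 5′ to 3′, with the seed in capitals.
let-7a-5p: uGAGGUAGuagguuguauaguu
let-7b-5p: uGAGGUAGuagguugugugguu
let-7c-5p: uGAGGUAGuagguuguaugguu
let-7d-5p: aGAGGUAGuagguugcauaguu
let-7e-5p: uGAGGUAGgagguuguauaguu
let-7f-5p: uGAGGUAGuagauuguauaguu
let-7g-5p: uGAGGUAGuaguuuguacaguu
let-7i-5p: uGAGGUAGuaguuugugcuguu
miR-98-5p: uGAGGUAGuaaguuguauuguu

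Against let-7a-5p, with positions counted from 1 at the 5′ end, let-7e-5p carried the substitution U9G, let-7c-5p A19G and let-7f-5p G12A, a single difference each. let-7b-5p carried A17G and A19G, and let-7i-5p, the most distant, carried G12U, A17G, U18C and A19U. No member differed within the seed. Such near-identical RNAs can bind each other's probes, and cross-hybridization was not tested, although no probe sequence of these miRs was shared with another miR on the array. Outside this family, the detected miRs (defined below) with the smallest p-values were miR-93-5p, miR-125a-5p, miR-652-3p and miR-103-3p, which carry other seeds (capitals) and are shown for that reason.
miR-93-5p: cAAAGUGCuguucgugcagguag
miR-125a-5p: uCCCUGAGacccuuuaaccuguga
miR-652-3p: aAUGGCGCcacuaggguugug
miR-103-3p: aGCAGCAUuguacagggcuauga

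The levels below are log2 signals after quantile normalization, averaged over the 16 spots of a miR on an array. Where 8 or more of these spots carried the scanner's mark for a signal clearly over background, the array was counted as detecting the miR. A miR is called detected below if all 3 arrays at 24 h or all 3 at 6 h did so. By this rule 128 of the 758 miRs were detected, 117 of them on all 6 arrays, while 576 were seen on no array of the 6. No miR went from 3 arrays at 24 h to 0 at 6 h, or the reverse. The 11 detected miRs that missed the mark on 1 or 2 arrays at 6 h, among them miR-146b-5p, miR-124-3p and miR-196b-5p, had log2 differences of -0.10 to 0.17.

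The islet identity of the line was visible in the signals. Of 10 islet-enriched miRs, 7 were detected on all 6 arrays, with miR-375-3p at 9.90 to 10.24 and miR-7a-5p at 10.71 to 10.87. Of 15 miRs of muscle, liver and blood, 14 were not detected and had mean signals of 5.31 to 5.88 at the background, among them miR-1-3p, miR-122-5p and miR-142-3p. The exception was miR-206-3p, known from muscle, at 6.55 to 7.15. Of the miR-200 family, known from epithelial and endocrine cells, miR-200c-3p and miR-141-3p were detected and the other 3 members were not.

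The 2 groups shared no slide. At 24 h, replicate 1 lay on slide 4 and replicates 2 and 3 on slide 3; at 6 h, replicate 1 lay on slide 1, which was scanned on another day, and replicates 2 and 3 on slide 2. Time and slide therefore cannot be told apart by a direct comparison. Replicate 1 at 6 h stood apart from its group. Over the 128 detected miRs it correlated with replicates 2 and 3 at r = 0.885 and 0.889, while these correlated with each other at 0.996. Among the 6 arrays of Givinostat alone, its best match was 24h_Giv_Ctrl replicate 3, at 0.99. For the let-7 family, most of the lists and some of the counts of miRs, values without 6 h replicate 1 are therefore given as well.

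No miR changed between 24 h and 6 h of Givinostat in limma fitted to the array means (p adjusted by Benjamini and Hochberg over 758 miRs, a call needing an absolute log2 difference above 0.1375, which is 1.1-fold, and an adjusted p below 0.05). The share called was 0%, and the smallest adjusted p was 0.217, for miR-1956-5p, which was not detected. With slide as a fixed or random block the count was also 0. At an unadjusted p below 0.05 there were 30 miRs, 3.96% of those tested, 26 with the higher mean at 24 h (3.43%) and 4 with the lower (0.528%). Of these 30, 19 were not detected and differed by at most 0.107. The other 11 were all higher at 24 h, 8.59% of the 128 detected miRs. Without 6 h replicate 1 the detected miRs at such a p numbered 46, 33 higher and 13 lower, and held all of these 11. That array was the highest of its group for each of the 11. Leaving it out could only widen their differences, so it is no independent check of them. The 11 were let-7a-5p, let-7b-5p, let-7c-5p, let-7d-5p, let-7e-5p, miR-93-5p, miR-103-3p, miR-125a-5p, miR-125b-5p, miR-129-5p and miR-652-3p.

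Quantile normalization gives all arrays the same distribution of signals, which favours centring of the time points on each other. After it, 64 of the 128 detected miRs had the higher mean at 24 h (50%). The median log2 difference of the 128 was 0.00, and -0.127 without normalization between arrays. The 95% confidence interval of a difference had a median half-width of 0.28 on the log2 scale for detected miRs, which is 1.21-fold. These intervals use a spread pooled over all 8 groups, although 6 h replicate 1 stood apart from its group. With limma fitted to the 2 compared groups only, 13 miRs in place of 30 had an unadjusted p below 0.05, and none was called. For 122 of the 128 the interval lay within 1 on the log2 scale, a 2-fold difference, in either direction, and for 106 it lay within 1.5-fold. The 3 arrays at 24 h lay all above or all below the 3 at 6 h for 44 of the 758 miRs (5.8%) and for 9 of the 128 detected miRs (7.03%), 8 of them higher (6.25%) and 1 lower (0.781%).

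**Figure D1:**
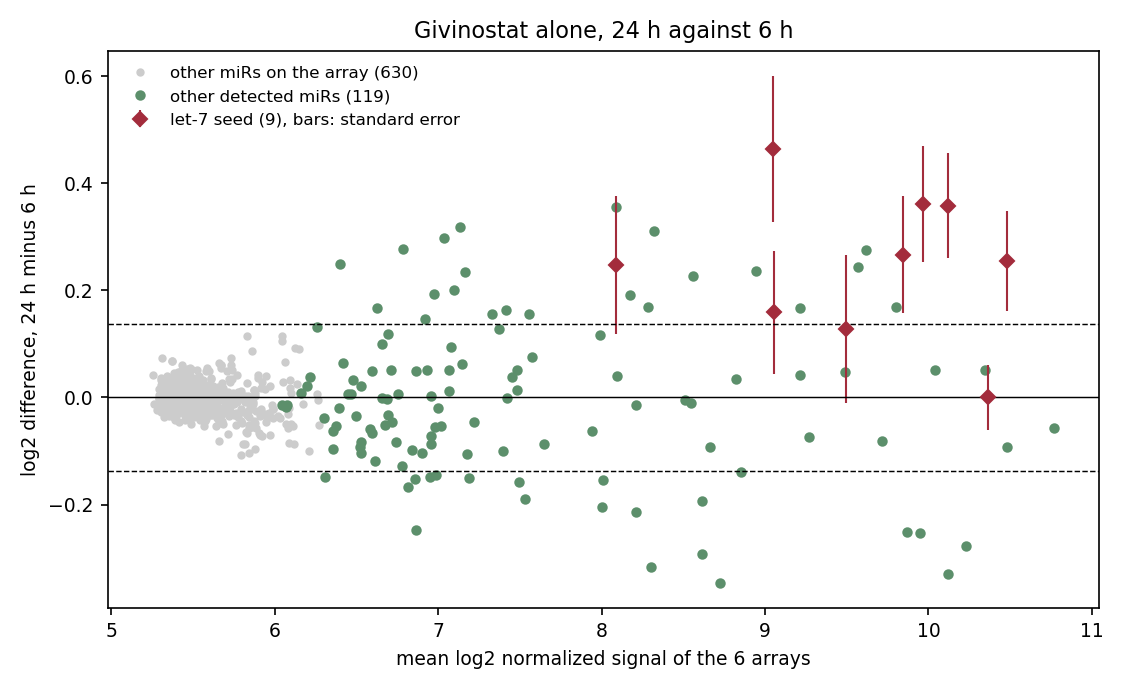
Log2 difference between 24 h and 6 h of Givinostat alone (y axis) against the mean log2 normalized signal of the 6 arrays (x axis) for 758 miRs, with the 9 miRs of the let-7 seed as diamonds and their standard errors as bars. Dashed lines mark the threshold of 0.1375 on either side. The detected miRs spread evenly about 0 after quantile normalization, which favours such centring, and 7 of the 9 let-7 diamonds lie above the upper line.

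The let-7 family was the family with the most members at a low unadjusted p, but it was also the largest by seed. Of the miR-125 seed, both detected members (miR-125a-5p and miR-125b-5p) had such a p, and their median difference was 0.2507. All 9 members were detected on all 6 arrays, all 9 had the higher mean at 24 h, and 5 of the 9 had an unadjusted p below 0.05, against 6 of the 119 other detected miRs; none of the 9 passed the adjusted threshold. The median log2 difference of the 9 was 0.255, against -0.0109 over the other detected miRs. For 3 of the 9 the arrays of the time points did not overlap. let-7g-5p was not on the list of 8 chosen for this family and was added because it carries the seed; without it the median was 0.261.

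let-7e-5p had the largest difference. It read 9.30, 9.22 and 9.32 on replicates 1 to 3 at 24 h, and 9.14, 8.71 and 8.60 at 6 h. All 24 h arrays lay above all 6 h arrays, and replicate 1 at 6 h was the nearest to them. The means were 9.28 ± 0.049 and 8.82 ± 0.28 (SD, n = 3 each). The log2 difference was 0.464 ± 0.137 (SE), with an adjusted p of 0.404 by limma.

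let-7b-5p had the smallest unadjusted p of the detected miRs. Its signals were 10.39, 10.20 and 10.30 at 24 h and 10.10, 9.85 and 9.87 at 6 h. The groups did not overlap, and the nearest arrays were 24 h replicate 2 and 6 h replicate 1. The difference was 0.358 ± 0.0982 (SE), with an unadjusted p of 0.00191 and an adjusted p of 0.404 by limma.

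let-7a-5p read 10.58, 10.59 and 10.65 at 24 h and 10.45, 10.31 and 10.30 at 6 h, a difference of 0.255 (limma, adjusted p = 0.872). Again the groups did not overlap and 6 h replicate 1 was the highest of its group. let-7c-5p read 10.22, 10.07 and 10.16 at 24 h and 10.07, 9.68 and 9.61 at 6 h, a difference of 0.362 (limma, adjusted p = 0.404). Here the lowest 24 h array and the highest 6 h array met, so the groups just overlapped. let-7d-5p read 9.97, 9.99 and 9.98 at 24 h and 10.01, 9.62 and 9.51 at 6 h, a difference of 0.266 (limma, adjusted p = 0.92), and 6 h replicate 1 lay above every 24 h array.

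The remaining members had smaller or less even differences. miR-98-5p differed by 0.248 (95% interval -0.02 to 0.52), let-7g-5p by 0.159 (-0.08 to 0.40) and let-7i-5p by 0.128 (-0.16 to 0.42), and for all 3 of these 6 h replicate 1 lay within or above the 24 h arrays. let-7f-5p did not follow the others. It read 10.28, 10.41 and 10.40 at 24 h and 10.42, 10.38 and 10.29 at 6 h, a difference of 0.00 with an interval of -0.13 to 0.13. That interval excludes the difference measured for let-7a-5p, from which let-7f-5p differs by 1 base, but the difference between these members was not tested.

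**Figure D2:**
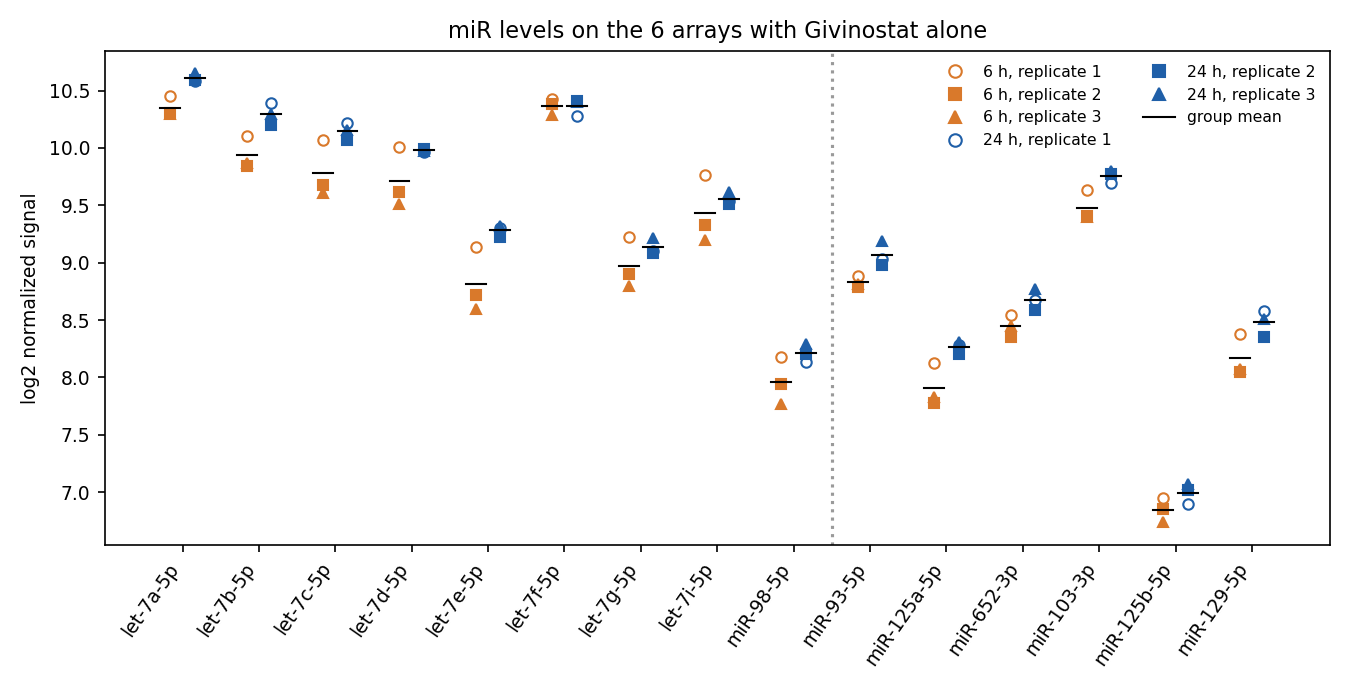
Log2 normalized signal (y axis) on each of the 6 arrays with Givinostat alone for the 9 let-7 miRs, left of the dotted line, and the 6 other detected miRs with an unadjusted p below 0.05, right of it; open circles are replicate 1 and short bars are group means. At 6 h replicate 1 is the highest of its group for all 15 miRs.

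The probe positions in the files, on rn4, place these miRs in short clusters. let-7a-5p, let-7f-5p and let-7d-5p lie together on chromosome 17 (chr17:22119781-22121928), where the differences were 0.255, 0.00 and 0.266. let-7c-5p and let-7b-5p lie together on chromosome 7 (chr7:123700806-123701232), with differences of 0.362 and 0.358. let-7f-5p and miR-98-5p lie on chromosome X (chrX:41376951-41377582), and let-7i-5p lies alone at chr7:62755367-62755386. Several of these mature miRs come from more than 1 locus (let-7a-5p, let-7c-5p and let-7f-5p), and an array signal does not say which locus gave it.

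miR-125a-5p is the cluster neighbour of let-7e-5p. On chromosome 1 the files place miR-99b-5p and let-7e-5p at chr1:56486982-56487169, and the RefSeq gene table (GRCr8) sets Mir99b, Mirlet7e and Mir125a next to each other. miR-125a-5p, known as a regulator of differentiation and of ERBB receptors, read 8.28, 8.21 and 8.31 at 24 h and 8.13, 7.77 and 7.83 at 6 h. The groups did not overlap, and the difference was 0.356 ± 0.111 (SE; limma, adjusted p = 0.416). miR-99b-5p read 7.46, 7.42 and 7.62 at 24 h and 7.66, 7.22 and 7.13 at 6 h, a difference of 0.164 (interval -0.13 to 0.46), with 6 h replicate 1 the highest of the 6 arrays. miR-125b-5p, which shares the seed of miR-125a-5p, differed by 0.146 (limma, adjusted p = 0.92).

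miR-93-5p is transcribed with miR-25 and miR-106b and is known for promoting proliferation. It read 9.03, 8.98 and 9.19 at 24 h and 8.89, 8.79 and 8.81 at 6 h. The groups did not overlap, and the difference was 0.237 ± 0.0699 (SE; limma, adjusted p = 0.404). Its neighbours on chromosome 12 (chr12:17608026-17608413 from miR-25-3p to miR-106b-5p) differed by 0.169 (miR-25-3p, interval -0.08 to 0.42) and 0.042 (miR-106b-5p, interval -0.23 to 0.31), and 6 h replicate 1 lay above the other 6 h arrays for each of them.

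miR-652-3p read 8.67, 8.58 and 8.77 at 24 h and 8.54, 8.35 and 8.45 at 6 h, a difference of 0.228 (limma, adjusted p = 0.677) without overlap. The other arm of the same hairpin, miR-652-5p, differed by 0.041 (interval -0.34 to 0.42). miR-103-3p, known for a role in insulin sensitivity, read 9.69, 9.77 and 9.80 at 24 h and 9.63, 9.41 and 9.40 at 6 h, a difference of 0.276 (limma, adjusted p = 0.92), again without overlap. Its relative miR-107-3p, which has the same seed, differed by 0.034 (interval -0.16 to 0.23). The last detected miR with an unadjusted p below 0.05, miR-129-5p, read 8.58, 8.35 and 8.51 at 24 h and 8.38, 8.05 and 8.07 at 6 h. Here 6 h replicate 1 lay above 24 h replicate 2, and the difference was 0.312 (limma, adjusted p = 0.965).

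Non-overlap alone picked out small differences too. miR-182, an islet and sensory miR, read 7.49, 7.51 and 7.52 at 24 h and 7.48, 7.41 and 7.47 at 6 h, and its difference of 0.05 turned to -0.05 without normalization between arrays. miR-23b-3p was the only detected miR whose 24 h arrays all lay below the 6 h arrays. It read 10.35, 10.45 and 10.50 at 24 h against 10.53, 10.53 and 10.52 at 6 h, a difference of -0.09 (interval -0.23 to 0.05), which turned positive, to between 0.06 and 0.15, with the scanner's background-subtracted signals. The 5 miRs with the highest signals were miR-7a-5p, miR-23b-3p, let-7a-5p, let-7f-5p and miR-24-3p, although signals of different probes do not rank abundance. Of these, miR-7a-5p (difference -0.06, interval -0.21 to 0.10) and miR-24-3p (0.05, interval -0.19 to 0.29) differed by less than the spread of the arrays.

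The fit used by the study, which treats the spots of a miR as correlated replicates, was rerun here. It called 2 of the 758 miRs (0.264%), both higher at 24 h. They were miR-3099, with an adjusted p of 8.24e-06, and miR-98-5p, with an adjusted p of 0.0137. The same fit also called miR-3099 between 24 h and 6 h in untreated cells, so that call was not particular to Givinostat. miR-3099 read 7.31, 7.06 and 7.18 at 24 h and 7.23, 6.68 and 6.75 at 6 h, so that 6 h replicate 1 lay within the 24 h arrays, and its difference of 0.298 had an adjusted p of 1 in limma on array means (0.47, with an adjusted p of 0.157, without that array). The 16 spots of an array read the same RNA, and for both miRs the arrays of the time points overlapped.

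The lists of related miRs had no called member. Among the islet-enriched miRs the 7 detected members differed by -0.06 to 0.19, with a median of 0.05. miR-375-3p, a regulator of insulin exocytosis, read 10.24, 9.90 and 10.06 at 24 h and 9.93, 9.92 and 10.20 at 6 h, with overlapping groups and an interval of -0.20 to 0.30. The largest value was that of miR-183-5p, at 0.19. Its cluster partner miR-96-5p was at 0.00 (interval -0.32 to 0.31), while miR-204-5p was at 0.00 and miR-7a-2-3p at 0.05. The 4 detected miRs that are known to support insulin production (miR-24-3p, miR-26a-5p, miR-26b-5p and miR-148b-3p) had a median of 0.03 and a range of -0.08 to 0.06. Without 6 h replicate 1 the median of the islet-enriched miRs was 0.06 and that of these 4 was 0.16, against 0.07 over all detected miRs.

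Families that regulate cell growth had medians on either side of 0. The 4 detected members of the miR-15/16 family, which act on cell cycle and survival genes, all had the higher mean at 24 h, with differences of 0.06 (miR-195-5p) to 0.17 (miR-16-5p) and a median of 0.14, and none had an unadjusted p below 0.05. This median was not stable: it was 0.335 without 6 h replicate 1, 0.018 to 0.335 over single arrays left out, -0.163 for 24 h replicate 3 minus 6 h replicate 1, and -0.0583 without normalization between arrays, where the median of all detected miRs was -0.127. The 3 detected members of the miR-17/92 clusters had a median of 0.17 (0.265 without 6 h replicate 1), with miR-93-5p alone below that p. miR-192-5p and miR-194-5p, linked to p53, had the lower means at 24 h, by -0.32 (interval -0.66 to 0.03) and -0.15 (interval -0.41 to 0.10). For miR-192-5p the 6 h arrays read 8.94, 8.26 and 8.18, so the difference rested on replicate 1, without which it was -0.08.

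The miR-29 family, induced in β-cells under glucose stress and known to lower insulin release, had differences of 0.05 (miR-29a-3p), -0.25 (miR-29b-3p) and -0.01 (miR-29c-3p). Their median was -0.01, and 0.19 without 6 h replicate 1. The 5 members of the miR-30 family, known for holding β-cells in their differentiated state, lay between -0.09 and 0.10, and the 3 detected members of the miR-23/27 list between -0.09 and -0.01. The medians of the miR-30 and miR-23/27 lists were -0.05 and -0.07, and 0.04 and -0.004 without 6 h replicate 1. Of the miRs linked to NF-κB, miR-21-5p differed by -0.05 and miR-146b-5p by 0.17 (interval -0.21 to 0.55), while miR-146a-5p and miR-155-5p were not detected; the median of the detected pair was 0.06, and 0.291 without 6 h replicate 1. Among targets of the neuronal repressor REST, miR-132-3p differed by 0.32 (interval -0.03 to 0.66; 0.53 without 6 h replicate 1), miR-212-3p by 0.05 and miR-124-3p by -0.02. Of the 19 miRs listed for the imprinted Dlk1-Dio3 locus only miR-494-3p was detected, with a difference of 0.13 (interval -0.13 to 0.38). The list left out other detected miRs whose probes lie in the same cluster as miR-494-3p on chromosome 6. These were miR-299a-5p, miR-539-5p, miR-667-3p and miR-485-3p, with differences of -0.03, -0.09, -0.11 and -0.21.

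A pair of lists came from the study itself. Its 13 miRs of interest, 8 of them detected here, had a median of 0.00 (0.09 without 6 h replicate 1) and ran from -0.28 (miR-466b-2-3p) to 0.17 (miR-146b-5p), with none at an unadjusted p below 0.05. These were chosen by the study on these arrays and are not independent evidence. Of the miRs it used as reference for qRT-PCR or their relatives, let-7c-5p and miR-103-3p were among the 11 with the lowest p, and miR-423-3p and miR-423-5p were not detected.

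**Figure D3:**
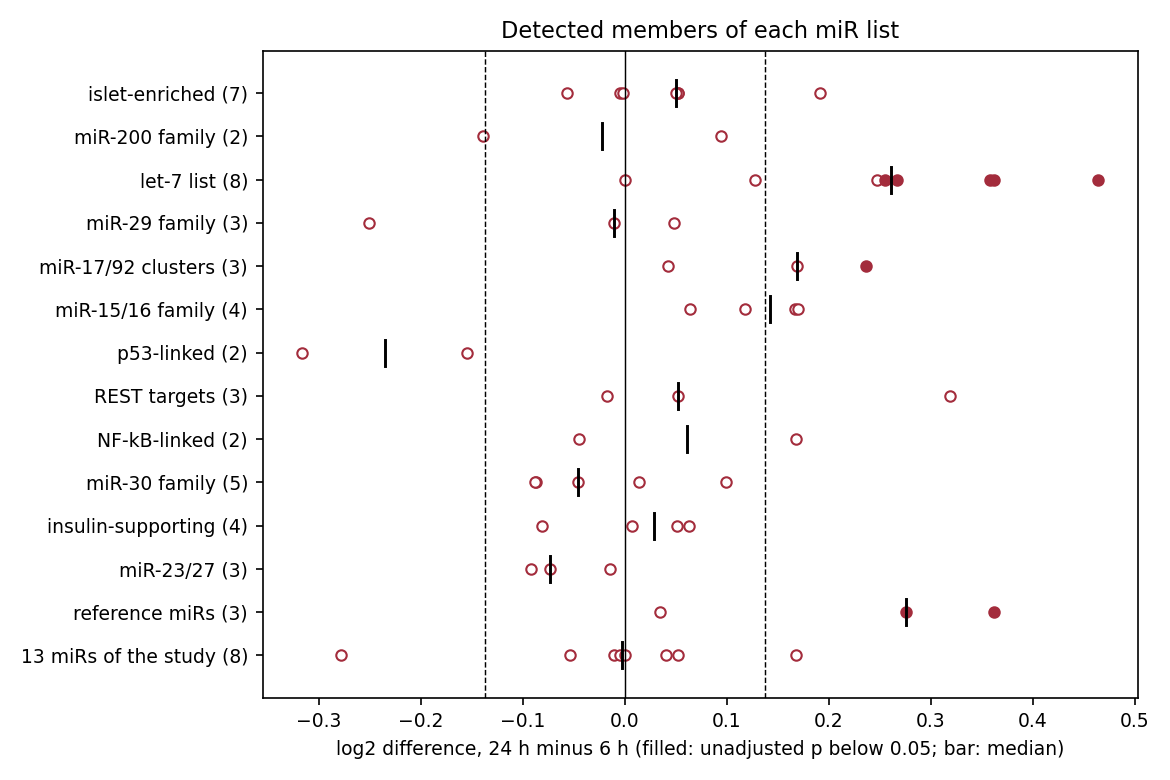
Log2 difference between 24 h and 6 h of Givinostat alone (x axis) for the detected members of each list of miRs with at least 2 such members (y axis, number in parentheses); filled points have an unadjusted p below 0.05, vertical bars are medians and dashed lines mark the threshold of 0.1375. The filled points lie in the let-7, miR-17/92 and reference lists, and let-7c-5p belongs to 2 of them.

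One array of each group deviated from its partners. Over the 128 detected miRs the deviation of 6 h replicate 1 from the mean of replicates 2 and 3 had an SD of 0.612, against 0.16 for the differences between the time points and 0.11 for the SD between replicates 2 and 3. The deviation of 24 h replicate 3 from its own group had an SD of 0.262, against 0.149 for the SD between replicates 1 and 2, and ran in parallel, with r = 0.938 (Spearman's rho 0.805) across the 128 miRs and the same sign for 124. This correlation is a description, since the miRs share their arrays. The brightness of the arrays, as the 75th percentile of the scanner's processed signal over detected miRs, was 531.7 on 6 h replicate 1, the highest of the 6 arrays, and 347.9 on 24 h replicate 3, against 371 and 286.3 on the other 6 h arrays and 274 and 377.8 on the other 24 h arrays. The part of slide, scan day and brightness in this was not tested.

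The detected miRs that were more than 1 log2 unit lower on 6 h replicate 1 than on its partners numbered 10, namely miR-466b-5p, miR-466b-3p, miR-466b-2-3p, miR-466c-3p, miR-764-5p, miR-32-3p, miR-485-3p, miR-346, miR-207 and miR-210-5p. The miR-466 sequences are shown because they are runs of alternating bases, UG in the 5p arm and AC in the 3p arms, which resemble each other; seeds are in capitals and the source is RefSeq (GRCr8).
miR-466b-5p: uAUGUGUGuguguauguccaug
miR-466b-3p: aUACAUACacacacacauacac
miR-466b-2-3p: aUAUACAUacacacauacaca
miR-466c-3p: uAUACAUGcacacauacacac

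miR-466b-3p read 9.24 on 6 h replicate 1 and 10.80 and 10.81 on replicates 2 and 3, and at 24 h it read 10.28, 10.13 and 9.45. miR-466b-5p read 7.84 on 6 h replicate 1 and 9.39 and 9.47 on its partners, and 8.90, 8.66 and 8.10 at 24 h. The lowest array of each group was thus 6 h replicate 1 and 24 h replicate 3. Their means were lower at 24 h by -0.33 and -0.35, with intervals that included 0 (unadjusted p = 0.435 and 0.398). Without 6 h replicate 1 the differences were -0.85 and -0.88. These 2 miRs lie on rn4 chromosome 17 at chr17:79291577-79291630, as opposite arms of a hairpin with largely complementary repeats. miR-466b-5p also maps to chr17:79288547-79288565, beside miR-466b-2-3p, and its signal does not say which locus gave it.

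**Figure D4:**
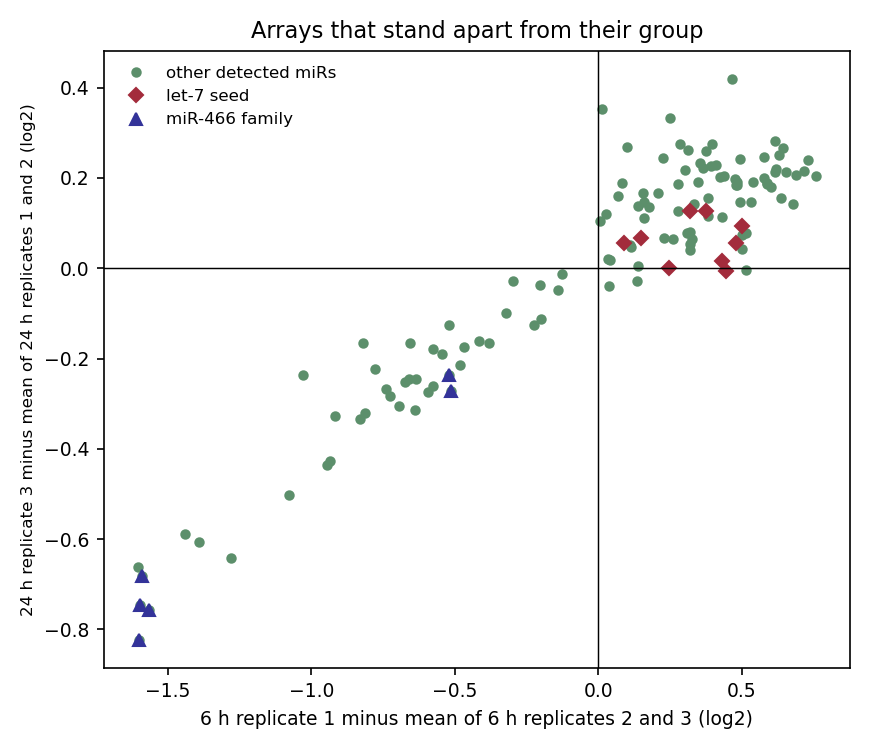
Deviation of 24 h replicate 3 from the mean of replicates 1 and 2 (y axis, log2) against the deviation of 6 h replicate 1 from the mean of replicates 2 and 3 (x axis, log2) for 128 detected miRs, with the let-7 seed as diamonds and miR-466 miRs as triangles. The points run along a line from the miR-466 members at the lower left (about -1.6 on the x axis) to the upper right; the let-7 miRs lie right of 0 on the x axis and near 0 on the y axis.

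All 9 let-7 miRs read higher on 6 h replicate 1 than on its partners, as did 85 of the 128 detected miRs, so this array raised the 6 h mean of the family and narrowed its difference. The deviation was 0.09 for let-7f-5p and 0.15 for let-7a-5p, below the median of 0.217 over the 128, and 0.25 to 0.50 for the other members. Without that array the median difference of the 9 was 0.354 in place of 0.255. No miR was called then either. The smallest adjusted p was 0.0515, held by let-7c-5p, and let-7e-5p had 0.0643, while 99 of 758 miRs (13.1%) had an unadjusted p below 0.05, 65 higher at 24 h and 34 lower. When the arrays that stood apart were set against each other (24 h replicate 3 minus 6 h replicate 1) the median was 0.0859 with 5 of 9 positive, and when the others were compared it was 0.312. With slide as a fixed block, which relies on the other groups to link the slides, 8 of 9 were positive and the median was 0.305. In that fit 91 of the 128 detected miRs kept their sign, and of the 11 with an unadjusted p below 0.05 all kept it while 3 stayed below that p, namely let-7b-5p, let-7c-5p and let-7e-5p.

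The direction of time for let-7 was also measured without Givinostat. In untreated cells 8 of the 9 had the higher mean at 24 h, with a median of 0.166, against 71 of the 128 detected miRs (55.5%). For 5 of the 9 all arrays at 24 h lay above those at 6 h, as for 7 of the 128 (5.47%). None of the 758 miRs was called in limma on array means (0%, smallest adjusted p 0.828), 39 (5.15%) had an unadjusted p below 0.05, and the study's fit on spots called 4. let-7b-5p went from 10.15 at 6 h to 10.47 at 24 h (0.323) and let-7e-5p from 9.18 to 9.50 (0.325), while let-7f-5p was again at 0.00. These groups share no array with the Givinostat groups, but the untreated arrays lay on slide 2 at 6 h and on slide 4 at 24 h, so slide and time cannot be told apart there either.

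The difference between the time effects with and without Givinostat was tested directly as an interaction, and no miR was called (0%, smallest adjusted p 0.998; 17 miRs, 2.24%, at an unadjusted p below 0.05), while the study's fit on spots called 3, none of them a let-7 miR. For the 9 let-7 miRs it ran from -0.04 to 0.17, with no unadjusted p below 0.209. The interval was -0.26 to 0.33 for let-7b-5p and -0.27 to 0.55 for let-7e-5p, so neither an equal time effect nor one larger by these upper values lay outside what 3 arrays per group could resolve. The detected miRs with the smallest p in this test were miR-325-3p (0.274, interval 0.02 to 0.53; limma, adjusted p = 0.998), miR-125a-5p (0.264, interval -0.07 to 0.59) and miR-30b-5p (0.228, interval -0.06 to 0.52). miR-325-3p had the lower mean at 24 h in untreated cells (-0.22) and differed by 0.05 with Givinostat, where its arrays overlapped. Over the 128 detected miRs the time differences with and without Givinostat had the same sign for 79 and correlated at r = 0.443 (rho 0.332), as a description across miRs measured on the same arrays. The correlation was 0.236 when 6 h replicate 1 and 24 h replicate 3 were left out, and 0.476 when the difference between these 2 arrays stood for the time effect.

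**Figure D5:**
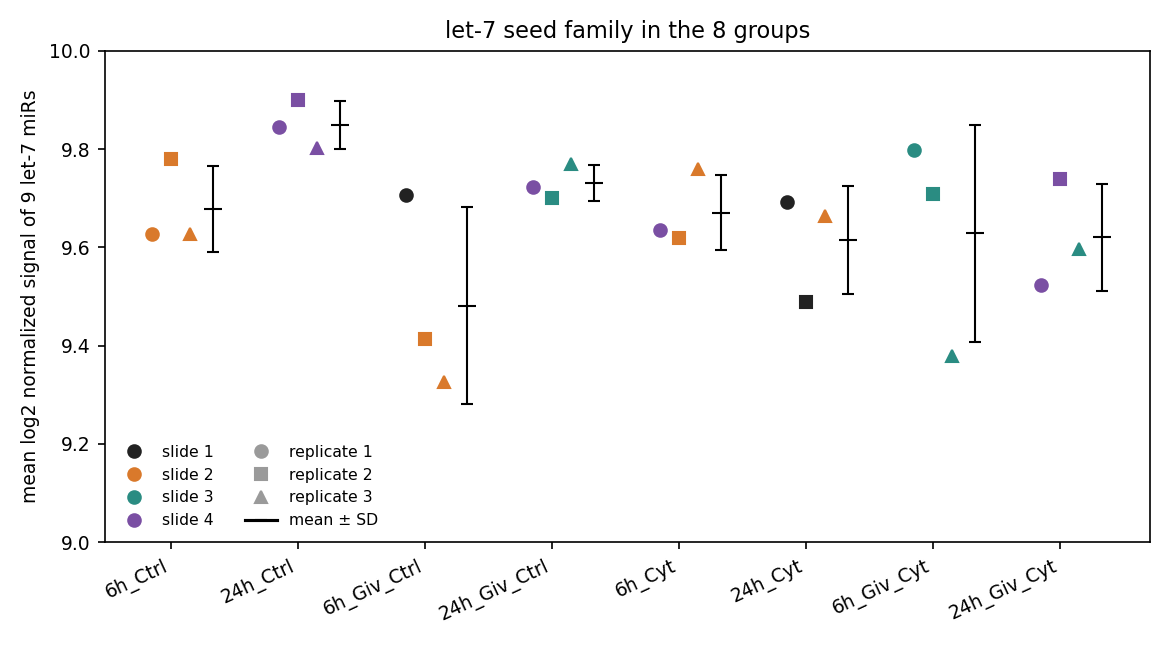
Mean log2 normalized signal of the 9 let-7 miRs (y axis, starting at 9) on each of the 24 arrays, by group (x axis), with colour for the slide, marker shape for the replicate and mean ± SD (n = 3) beside each group. 6h_Giv_Ctrl replicates 2 and 3, on slide 2, are at 9.41 and 9.33, below the 3 arrays of 24h_Giv_Ctrl at 9.70 to 9.77, while replicate 1, on slide 1, is at 9.71.

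Averaged over the 9 members, the let-7 signal was 9.72, 9.70 and 9.77 in 24h_Giv_Ctrl and 9.71, 9.41 and 9.33 in 6h_Giv_Ctrl. The 24 h arrays lay close together, and the highest 6 h array lay among them. The untreated arrays read 9.63 to 9.78 at 6 h and 9.80 to 9.90 at 24 h, and those with Givinostat and cytokines 9.38 to 9.80 at 6 h and 9.52 to 9.74 at 24 h. With cytokines alone the arrays read 9.62 to 9.76 at 6 h and 9.49 to 9.69 at 24 h. The means at 6 h and 24 h were 9.67 and 9.62 with cytokines alone, and 9.63 and 9.62 with Givinostat and cytokines. In neither case was the mean of the 9 higher at 24 h. With Givinostat and cytokines that direction depended on let-7g-5p. Without it the mean was 9.6922 (SD 0.222) at 6 h and 9.6999 (SD 0.105) at 24 h, so no direction can be read from these groups. With Givinostat and cytokines the median difference of the 8 members on the list was 0.0286. Of the arrays in the other groups, 6h_Giv_Cyt replicate 3, at 9.38, was the only one below 6h_Giv_Ctrl replicate 2, and 24h_Cyt replicate 2, at 9.49, was the next.

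With cytokines added to Givinostat the time effect differed for 3 miRs, called in an interaction that sets the 6 arrays of Givinostat alone against the 6 with cytokines (0.396% of 758). miR-93-5p, which had the higher mean at 24 h with Givinostat alone (0.237), had the lower mean at 24 h when cytokines were present (8.69 against 8.92, difference -0.23), and the 2 time effects differed by -0.47 (interval -0.68 to -0.26; limma, adjusted p = 0.0292). This call was kept in 24 of 42 alternatives and lost with slide as a fixed block (difference -0.365; limma, adjusted p = 0.961) and in 8 of the 24 fits with 1 array left out. miR-146a-5p, induced by NF-κB, was below detection on all 6 arrays with Givinostat alone, at 5.40 to 5.50. With cytokines it was detected on the 3 arrays at 24 h and on none at 6 h, and the difference between the time effects was positive and called in all 42 alternatives (limma on array means, adjusted p = 1.57e-08). Because the arrays it is set against were below detection, the size of that difference is not fixed, and it ran from 0.534 to 5.26 over the alternatives. miR-3584-5p, at 5.65 to 5.84, was also below detection with Givinostat alone and was detected on 2 of the 3 arrays at 24 h with cytokines. Its difference was called (limma, adjusted p = 0.0292), with the call kept in 21 of 42 alternatives and lost with slide as a fixed block (adjusted p = 0.557), and its size ran from 0.28 to 4.76. Among the miRs detected with Givinostat alone, miR-129-5p had the smallest p after miR-93-5p, with a difference of -0.71 between the time effects (interval -1.11 to -0.32) that was not called (limma, adjusted p = 0.136).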

How the data were processed

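Total RNA enriched for miRs was hybridized to 24 arrays. The authors deposited 1 scanner file per array with spot intensity on a linear scale, not normalized between arrays (Agilent Feature Extraction 10.7.3.1 per the file headers, 9.1 per the labels), and a table of log2 values per miR, which served as an alternative. Median foreground intensity of 12128 miR spots (715 control spots removed, no background correction, as in the study's methods) was quantile-normalized with limma 3.58.1 in R 4.3.3, and log2 signals were averaged per miR and array. lmFit and eBayes were run on all 24 arrays with 8 group means and 16 residual degrees of freedom, because spots of an array are not replicates of a treatment. The fit was tested on simulated data. The precision is limited by 3 arrays per group. Members, lists and the rule for named miRs (called by either test, non-overlapping detected miRs, leading interactions, brightest miRs, list members) were chosen with earlier results of these data known; let-7g-5p, let-7c-5p, let-7d-5p, miR-125b-5p, miR-99b-5p, miR-1956-5p and the miR-466 group were named after their values were seen. RefSeq names matched 685 of 758 miRs, and 488 had an rn4 probe position. Alternatives covered spot summary, background, scaling, slide, pairing, weights, thresholds and each array left out. Figures were drawn with matplotlib in Python. The qRT-PCR and other experiments of the study were not analysed here.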

Additional observations from a re-analysis of the deposited data

Results flagged for a closer look

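The time effect under Givinostat differed with and without cytokines for 3 miRs in the limma interaction test over 758 miRs. The difference was 0.667 for miR-146a-5p, whose signal went from 5.48 to 6.19 between 6 h and 24 h with cytokines and from 5.41 to 5.46, below detection, without them. Since that side was below detection the size is not fixed: it ran from 0.534 to 5.26 over 42 alternatives, all of which called it. It was 0.337 for miR-3584-5p, which went from 5.70 to 6.04 with cytokines and read 5.72, below detection, at both times without them. It ran from 0.28 to 4.76, and the call was kept in 21 of 42 alternatives. It was -0.469 for miR-93-5p, which went from 8.92 to 8.69 with cytokines and from 8.83 to 9.07 without, and this call was kept in 24 of 42 alternatives. Both of the latter calls were lost with slide as a fixed block. No cause was tested, and slides differ between the time points in part of these groups.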

How the results depend on the processing

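The count of 0 called miRs between 24 h and 6 h of Givinostat held under 42 of 44 alternatives, among them each array left out (0 to 0), slide as a block and the deposited log2 values. The exceptions were the pooled correlation test (2) and array weights (8: let-7b-5p, let-7c-5p, let-7d-5p, let-7e-5p, miR-125a-5p, miR-183-5p, miR-196b-5p and miR-361-5p, with 0.153 as the weight of 6h_Giv_Ctrl replicate 1, from a weight estimate that stopped before convergence). Untreated cells gave 4 with the pooled test, 1 with the total signal and 0 otherwise. The interaction with treatment gave 3 with the pooled test. With cytokines, the main count of 3 became 13 (pooled), 6 (processed signal scaled on detected miRs), 5 (total signal), 21 (no normalization), 1 (compared groups only) and 9 (array weights), and 2 to 4 with an array left out. The interaction with cytokines became 13 (pooled), 12 (array weights), 6 (no threshold) and 1 with normexp, the processed signal scaled on all miRs, slide as a fixed block, slide 1 left out, compared groups only and the 2 arrays that stood apart left out (chosen after seeing the data). The count was 1 to 4 with an array left out, and 1 without 24h_Giv_Ctrl replicate 1 or 3, 6h_Giv_Ctrl replicate 3, or replicate 2 of 24h_Giv_Cyt or of 6h_Giv_Cyt. miR-146a-5p was called in each of the 42 alternatives that gave its value, miR-93-5p in 24 and miR-3584-5p in 21. The causes were not tested. Directions turned for miR-182 (-0.0472, no normalization), miR-23b-3p (0.0828, 0.147 and 0.0645 with the processed signal on detected or all miRs and the total signal) and the cytokine interaction of miR-93-5p (0.116, no normalization). let-7a-5p, let-7b-5p and let-7e-5p were higher at 24 h under all 42 alternatives, at 0.175 to 0.461, 0.235 to 0.612 and 0.289 to 0.666. Many of these alternatives could not change the difference, among them every fit that left out an array of another group, so the count of 42 overstates the check. Over single arrays left out the differences ran from 0.228 to 0.304, 0.309 to 0.44 and 0.355 to 0.624. Without normalization the median of the detected miRs was -0.127 and all 9 let-7 miRs were still positive (median 0.16). The deviations of same-numbered arrays of the groups correlated at r = -0.836, 0.659 and -0.871. Since 1 array of each group stood apart, these values cannot settle whether the numbers pair the arrays. The fit with the replicate block called 0.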
